A study of Mus musculus with 6 samples.

Results

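The interleukin genes examined here are the protein-coding mouse genes whose symbol starts with Il directly followed by a number, 83 of the 21887 protein-coding genes on chromosomes 1 to 19, X and Y. They comprise 39 ligand genes, 41 receptor genes, the binding protein gene Il18bp, the amino acid oxidase gene Il4i1 and the gene Il4i1b. ATAC-seq, in which the Tn5 transposase cuts and tags open chromatin, had been run on lineage-depleted marrow, described in the labels as stem and progenitor cells of the blood (HSPC), from mice carrying inv(16). The inversion is labelled in all 6 libraries, and per the labels all 6 also received viral transduction and tamoxifen induction. The 3 libraries of genotype inv(16);Smc3 D/+ (Smc3 het) are heterozygous for Smc3, the gene of a core cohesin protein, and the 3 of genotype inv(16);Smc3 +/+ (Smc3 wt) carry it unaltered. The labels do not give the virus, the Cre line, the age or sex of the mice, or whether animals were pooled. In human acute myeloid leukemia, inv(16) joins CBFB to MYH11.

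The deposited data are 1 peak list per genotype on mm10, with 47233 peaks in Smc3 het against 14830 in Smc3 wt, and read depth is unknown. The lists give no values per library, so differences between them could not be set against the spread of replicates, and no p-value is given. A peak belongs here to the gene whose span its summit lies in or is nearest to. Shared means an overlap of at least 1 bp with a peak of the other list, and alone means none. The fold over background and the -log10 q given for a peak are the authors' values and describe it within its own list. Intervals beside shares are at the 95% level, exact by the Clopper-Pearson method, for counting error alone.

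Interleukins are secreted proteins by which blood and tissue cells signal to each other. IL-1 family cytokines act through receptors that recruit MyD88 and activate NF-κB, whereas most others act through paired receptor chains that activate JAK kinases and STAT transcription factors. Receptor chains are shared within families, such as the γ chain for IL-2, IL-4, IL-7, IL-9, IL-15 and IL-21 and gp130 for IL-6 and IL-11. In bone marrow, IL-3, IL-6 and IL-1 are known to drive myeloid output, IL-7 is required for mouse B cell development, and IL-33 and IL-5 act on mast cells and eosinophils.

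Promoters of the interleukin genes had an overlapping peak from Smc3 het only, from both lists or from neither. Start-site windows running from 250 bases before to 50 bases after a transcription start, from RefSeq on GRCm38.p6 (the assembly of mm10), were matched by symbol and gene ID for 66 of the 83 genes, with 81 windows in all. Of these, 13 (16.0%) were overlapped by a Smc3 het peak only, 9 (11.1%) by peaks of both lists, 0 by a Smc3 wt peak only and 59 (72.8%) by neither. In the 21182 windows of other genes the shares were 11.1% for Smc3 het only, 35.9% for both and 52.9% for neither. The 8 windows printed here are the 4 of each kind with the most significant Smc3 het peak over them. Capitals mark matches, on either strand, to the motifs listed after them.

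The first 4 had a peak in the Smc3 het list alone. They are the promoters of Il6 (chr5:30012864-30013163, + strand), which encodes the acute-phase cytokine IL-6, of Il11ra1 (chr4:41760193-41760492, + strand), the IL-11 receptor, of Il17rd (chr14:27038751-27039050, + strand), a receptor-like inhibitor of FGF signalling, and of Il1r1 (chr1:40224830-40225129, + strand), the signalling IL-1 receptor.
Il6: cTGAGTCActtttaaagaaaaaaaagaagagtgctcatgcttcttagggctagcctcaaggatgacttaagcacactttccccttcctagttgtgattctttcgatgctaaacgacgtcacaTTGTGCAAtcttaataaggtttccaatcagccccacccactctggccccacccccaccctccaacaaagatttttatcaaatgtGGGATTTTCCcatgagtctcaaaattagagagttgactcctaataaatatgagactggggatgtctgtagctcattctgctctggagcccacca
Il11ra1: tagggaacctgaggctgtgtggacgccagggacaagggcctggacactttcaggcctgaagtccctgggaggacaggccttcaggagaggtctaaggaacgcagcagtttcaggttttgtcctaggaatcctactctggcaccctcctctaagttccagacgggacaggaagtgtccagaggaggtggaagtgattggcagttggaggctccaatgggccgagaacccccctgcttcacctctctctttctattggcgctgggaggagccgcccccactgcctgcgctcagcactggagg
Il17rd: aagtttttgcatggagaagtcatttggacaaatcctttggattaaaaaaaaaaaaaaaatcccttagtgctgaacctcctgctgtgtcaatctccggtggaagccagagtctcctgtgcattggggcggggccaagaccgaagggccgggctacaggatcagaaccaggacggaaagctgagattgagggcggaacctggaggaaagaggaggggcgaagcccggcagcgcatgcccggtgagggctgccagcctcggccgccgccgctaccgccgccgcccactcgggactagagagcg
Il1r1: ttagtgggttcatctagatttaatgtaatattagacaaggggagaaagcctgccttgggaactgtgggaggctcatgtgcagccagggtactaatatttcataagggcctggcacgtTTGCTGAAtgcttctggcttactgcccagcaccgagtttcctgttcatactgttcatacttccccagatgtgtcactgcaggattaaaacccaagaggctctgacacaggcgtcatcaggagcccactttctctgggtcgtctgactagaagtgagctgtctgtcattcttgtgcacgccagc

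The other 4 had a peak in both lists. They are the promoters of Il4i1b (chr7:44816120-44816419, + strand), whose locus with Il4i1 also holds Atf5, Nup62 and Tbc1d17, so that its promoter peak cannot be tied to it alone, of Il12rb2 (chr6:67376139-67376438, - strand), the signalling chain of the IL-12 receptor, of Il3ra (chr14:14346245-14346544, + strand), the α chain of the IL-3 receptor, and of Il1rap (chr16:26581455-26581754, + strand), the accessory chain of the IL-1, IL-33 and IL-36 receptors.
Il4i1b: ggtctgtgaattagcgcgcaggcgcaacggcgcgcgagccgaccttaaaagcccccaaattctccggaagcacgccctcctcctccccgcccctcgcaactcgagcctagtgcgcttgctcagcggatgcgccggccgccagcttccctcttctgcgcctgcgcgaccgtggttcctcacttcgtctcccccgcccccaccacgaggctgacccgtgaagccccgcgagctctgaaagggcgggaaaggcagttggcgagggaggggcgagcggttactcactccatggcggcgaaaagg
Il12rb2: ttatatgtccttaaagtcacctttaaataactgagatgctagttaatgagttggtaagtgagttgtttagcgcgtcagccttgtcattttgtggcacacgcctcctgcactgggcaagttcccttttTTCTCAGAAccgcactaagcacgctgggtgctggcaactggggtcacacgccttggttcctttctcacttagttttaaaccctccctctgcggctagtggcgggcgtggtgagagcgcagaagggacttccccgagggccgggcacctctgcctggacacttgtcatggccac
Il3ra: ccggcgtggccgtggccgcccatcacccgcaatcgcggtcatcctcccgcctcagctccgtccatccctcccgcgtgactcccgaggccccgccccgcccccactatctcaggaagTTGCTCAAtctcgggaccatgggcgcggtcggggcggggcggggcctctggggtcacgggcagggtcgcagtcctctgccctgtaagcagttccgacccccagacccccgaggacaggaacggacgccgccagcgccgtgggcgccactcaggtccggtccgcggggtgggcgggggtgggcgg
Il1rap: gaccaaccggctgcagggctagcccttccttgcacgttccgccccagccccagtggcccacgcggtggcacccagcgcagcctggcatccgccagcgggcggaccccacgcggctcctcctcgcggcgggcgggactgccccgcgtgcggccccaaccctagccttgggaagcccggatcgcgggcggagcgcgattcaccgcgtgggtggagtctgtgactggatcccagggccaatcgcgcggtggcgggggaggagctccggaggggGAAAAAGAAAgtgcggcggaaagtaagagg

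The Smc3 het peaks over the first 4 windows had folds of 3.70 (Il6), 3.18 (Il11ra1), 3.44 (Il17rd) and 3.36 (Il1r1). Over the other 4 the fold was 5.47 in Smc3 het against 4.47 in Smc3 wt at Il4i1b, and the values at the rest are given with their genes. The Il6 window held 3 matches, to AP-1, C/EBP and NF-κB. The windows of Il1r1 and Il3ra held a C/EBP match each, that of Il12rb2 a STAT match and that of Il1rap an IRF match, and those of Il11ra1, Il17rd and Il4i1b held none. No pair of matches overlapped in these 8 windows. The letters searched on both strands were TGTGGT for RUNX, CGGAAGT for ETS, GAGGAAG for PU.1, TGAGTCA or TGACTCA for AP-1, TTCNNNGAA for STAT, TTGCNNAA for C/EBP and AGATAA for GATA. For NF-κB they were GGG, any 2 bases and TTTCC, for IRF a pair of GAAA with any 2 bases between them, and for CTCF CCAC, any base, AG, any 2 bases and GGC.

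Over all 81 interleukin windows, NF-κB and AP-1 motifs were found more often than in the windows of other genes. NF-κB letters were in 8 interleukin windows (9.88%, interval 4.36 to 18.5) and in 1.57% of the others, and AP-1 letters in 12 (14.8%, 7.90 to 24.4) and in 4.62%. RUNX letters were in 25.9% (16.8 to 36.9) and 14.9%, and C/EBP letters in 18.5% (10.8 to 28.7) and 10.1%. For GATA the shares were 16.0% (8.83 to 25.9) and 9.63%, for STAT 12.3% (6.08 to 21.5) and 7.68%, for PU.1 11.1% (5.21 to 20.05) and 13.6%, for IRF 3.70% (0.770 to 10.4) and 3.35%, and for ETS 2.47% (0.300 to 8.64) and 8.41%. The intervals for GATA, STAT, PU.1, IRF and ETS included the share in other genes, and those for NF-κB, AP-1, RUNX and C/EBP did not. CTCF letters were in 0 of the 81 windows, which allows a share of up to 3.7% at 3 counts and 4.45% by the exact interval, and in 0.656% of the others. Over all 21263 windows the shares were 1.604% for NF-κB, 4.66% for AP-1, 14.97% for RUNX, 10.2% for C/EBP, 9.65% for GATA, 7.69% for STAT, 13.6% for PU.1, 3.35% for IRF, 8.39% for ETS and 0.654% for CTCF. Some windows of a gene overlap each other, so they are not independent. Base composition also differed between the groups: the median GC content was 51.0% in interleukin windows and 56.3% in the others. Within the interleukin windows it was 51.3% where Smc3 het alone had a peak, 66.0% where both lists had one and 49.0% where neither had one. Its part in the motif shares was not tested.

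Most interleukin genes held a peak in Smc3 het, and a minority held one in Smc3 wt. In Smc3 het 61 of the 83 genes (73.5%, 62.7 to 82.6) had at least 1 peak, against 73.3% of all genes, and in Smc3 wt 31 (37.3%, 26.97 to 48.7), against 47.0% of all genes, a value inside that interval. Accordingly 30 genes had peaks in Smc3 het only, 31 in both lists, 0 in Smc3 wt only and 22 in neither. The Smc3 het list had 180 peaks at these genes and the Smc3 wt list 43, a ratio of 4.19, against 3.19 over all genes. Per gene this was 2.17 peaks in Smc3 het against 0.518 in Smc3 wt, and over all genes 2.14 and 0.671. The Smc3 het list had more peaks at 55 genes, the lists had equal numbers at 6 of the genes with peaks, and the Smc3 wt list had more at 0. Shares of all genes for these counts, and for the split into 30, 31, 0 and 22, are not given here. Without those shares, and with 3.19 times as many Smc3 het peaks over all genes, such counts cannot tell whether interleukin genes differ from others.

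Of the 180 Smc3 het peaks, 141 (78.3%, 71.6 to 84.1) were in the Smc3 het list alone, against 69.9% of all Smc3 het peaks. They were spread over 57 of the 83 genes (68.7%, 57.6 to 78.4), against 56.4% of all genes. All 43 Smc3 wt peaks were shared. A count of 0 of 43 alone allows a share of up to 6.98% when 3 counts are taken as the limit, and of up to 8.22% by the exact interval. The 2.9% of all Smc3 wt peaks that were alone lies below both. None of the 83 genes held a Smc3 wt peak that was alone, against 1.77% of all genes.

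**Figure D1:**
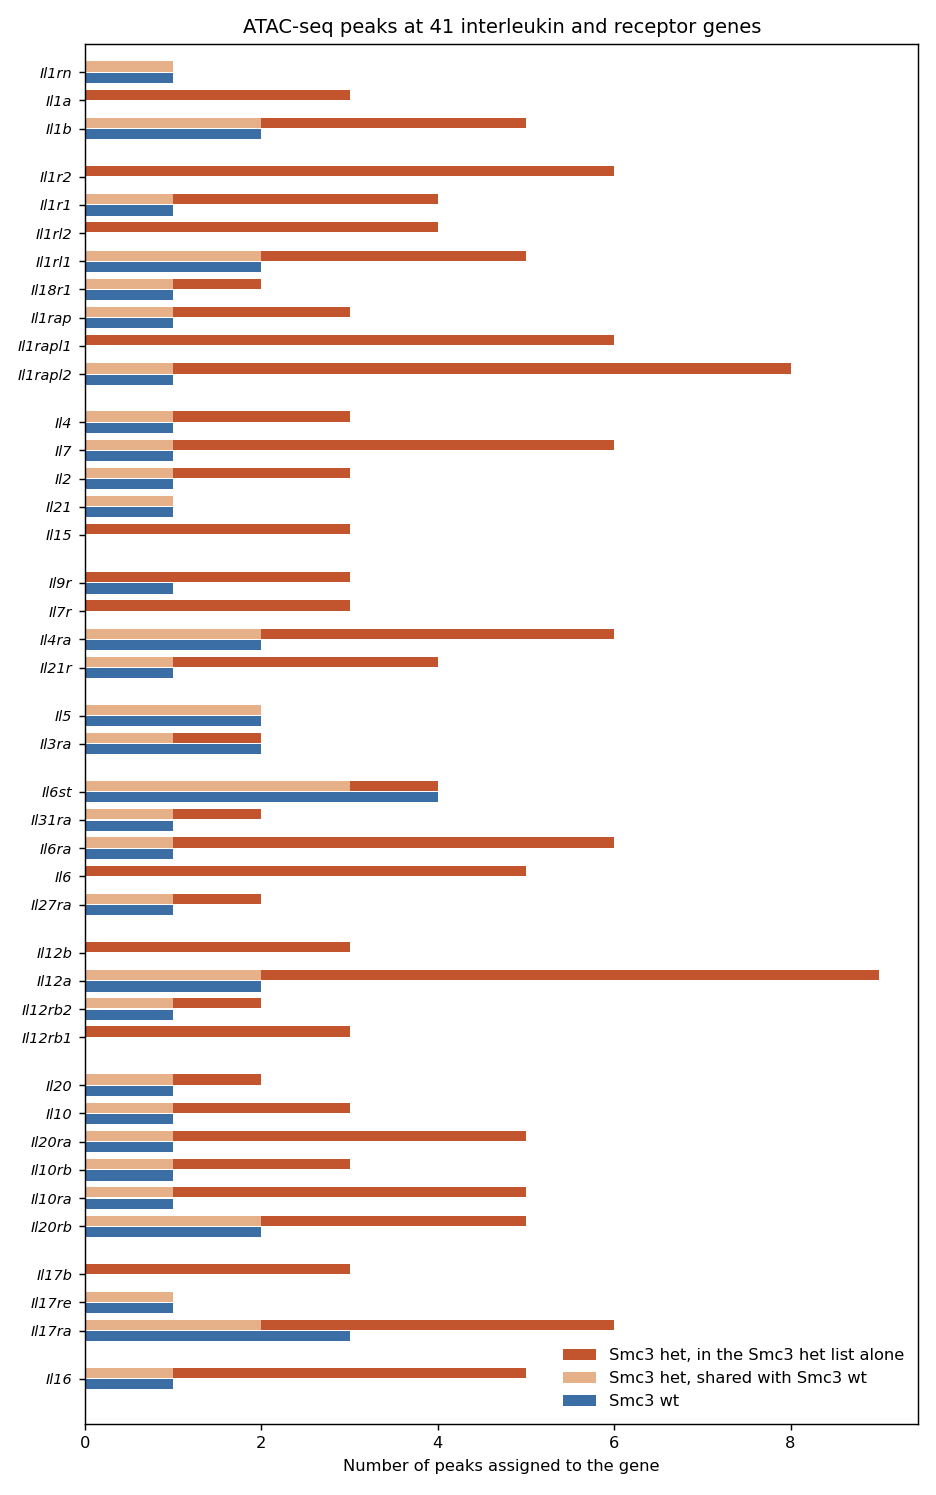
Number of peaks (x axis) assigned to each of the 41 interleukin and receptor genes with at least 3 Smc3 het peaks or any Smc3 wt peak, grouped by family. The upper bar of each gene is Smc3 het, split into those shared with Smc3 wt and those that were alone, and the lower bar is Smc3 wt. The upper bar is at least as long as the lower one at every gene shown, and it reaches 9 peaks at Il12a and 8 at Il1rapl2.

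The higher share of peaks without a Smc3 wt counterpart went with the significance of the peaks. Within the Smc3 het list, the median percentile by -log10 q was 45.5 for interleukin peaks and 50.04 for the others, and within the Smc3 wt list it was 30.7 for interleukin peaks and 50.3 for the others. The top decile of the Smc3 het list held 4 interleukin peaks, 0 of them alone. The third decile held 25, of which 14 (56.0%, 34.9 to 75.6) were alone, against 48.4% of the other peaks, and the last held 18, all 18 alone, against 98.996%. When the other peaks were weighted to the deciles of the interleukin peaks, 79.1% were alone, against 78.3% of the interleukin peaks themselves and 69.8% without weights. Weighted instead by position (at a gene end, elsewhere in a gene or between genes), 74.7% of the other peaks were alone, and weighted by both 79.7%.

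**Figure D2:**
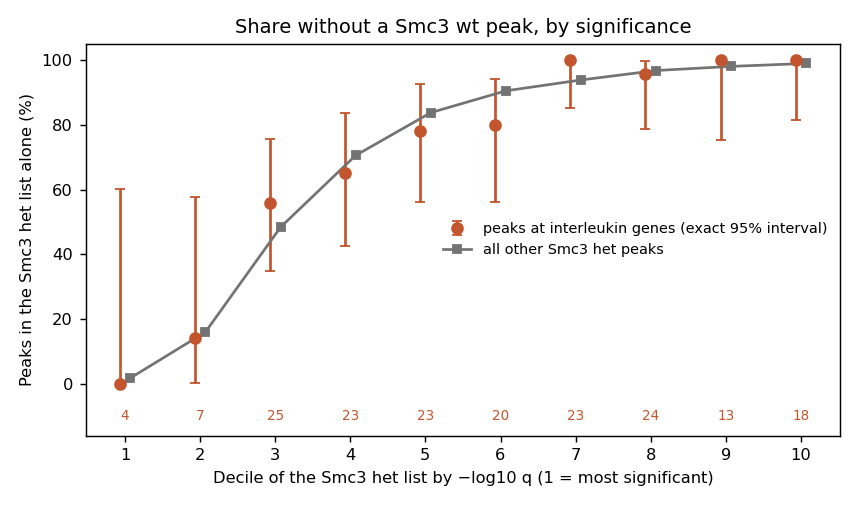
Share of Smc3 het peaks in the Smc3 het list alone (y axis, percent) by decile of -log10 q in the Smc3 het list (x axis, 1 is the most significant). Circles are peaks at interleukin genes with exact 95% intervals and their number below, and squares are all other Smc3 het peaks. The intervals of the interleukin peaks include the value of the other peaks in every decile, with 0 of 4 alone in the first and 18 of 18 in the last.

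With the Smc3 het list reduced to its 14830 most significant peaks, the length of the Smc3 wt list, interleukin genes had 39 Smc3 het and 43 Smc3 wt peaks. Of these, 16 (41.03%, 25.6 to 57.9) in Smc3 het and 18 (41.9%, 27.01 to 57.9) in Smc3 wt had no counterpart, against 23.9% and 22.4% over all genes. At that length 9 of the 41 genes in the plot of counts had more peaks in Smc3 het, 13 had more in Smc3 wt and 19 had equal numbers. Those 41 include every gene with a Smc3 wt peak. Genes with no Smc3 wt peak and fewer than 3 Smc3 het peaks, such as Il9, were left out. The tally by gene therefore leans toward Smc3 wt, and no conclusion is drawn from it. By the totals of 39 and 43 peaks, interleukin genes did not have more peaks in Smc3 het at equal list length.

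Shared peaks at interleukin genes lay at gene ends less often than other shared peaks did. A summit was counted as at a gene end when no more than 1 kb from where the gene span starts or stops. Of the Smc3 het peaks alone, 14 of 141 (9.93%, 5.53 to 16.1) had a gene-end summit, 58 (41.1%) lay elsewhere inside a gene and 69 (48.9%) between genes, close to the 12.8%, 42.5% and 44.7% of other peaks in that list alone. Of the shared Smc3 het peaks, 11 of 39 (28.2%, 15.001 to 44.9) were at a gene end and 17 (43.6%, 27.8 to 60.4) between genes, against 51.5% and 22.0% of other shared peaks. Counted by gene, 15 of 83 (18.1%, 10.5 to 28.0) had such a peak in Smc3 het only, against 14.2% of all genes, and 14 (16.9%, 9.54 to 26.7) in both lists, against 37.5%. None of the 83 had it in Smc3 wt only, against 0.265%, and 54 (65.1%, 53.8 to 75.2) had it in neither list, against 48.1%.

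Among interleukin genes with a peak at an end most were receptor genes, as few ligand genes had one in both lists. Of 41 receptor genes 9 (22.0%, 10.6 to 37.6) had one in Smc3 het only and 12 (29.3%, 16.1 to 45.5) in both lists. Of 39 ligand genes 6 (15.4%, 5.86 to 30.5) had it in Smc3 het only and 1 (2.56%, 0.0650 to 13.5), Il7, in both. The intervals for both lists did not overlap between receptors and ligands. The shares of all genes, 14.2% in Smc3 het only and 37.5% in both lists, lay inside the receptor intervals. For ligands 14.2% lay inside the interval and 37.5% above it. The receptors with it in Smc3 het only were Il1r2, Il1rl1, Il7r, Il4ra, Il11ra1, Il20ra, Il10ra, Il17rd and Il17rb, and the ligands Il18, Il15, Il3, Il6, Il23a and Il10. Those in both lists were Il1rap, Il18r1, Il9r, Il21r, Il3ra, Il6ra, Il6st, Il27ra, Il12rb2, Il10rb, Il17ra and Il17rc, with Il7 and Il4i1b. The summits at the ends of Il17rc, Il17rb, Il1rl1 and Il4i1b, and the Smc3 het one at Il9r, were assigned to a neighbouring gene. The median gene span was 32366 bp for receptors and 6596 bp for ligands. Any peak at all was found in Smc3 het at 34 receptors (82.9%) and 25 ligands (64.1%), against 73.3% of all genes. In Smc3 wt it was found at 20 receptors (48.8%) and 11 ligands (28.2%), against 47.0% of all genes.

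**Figure D3:**
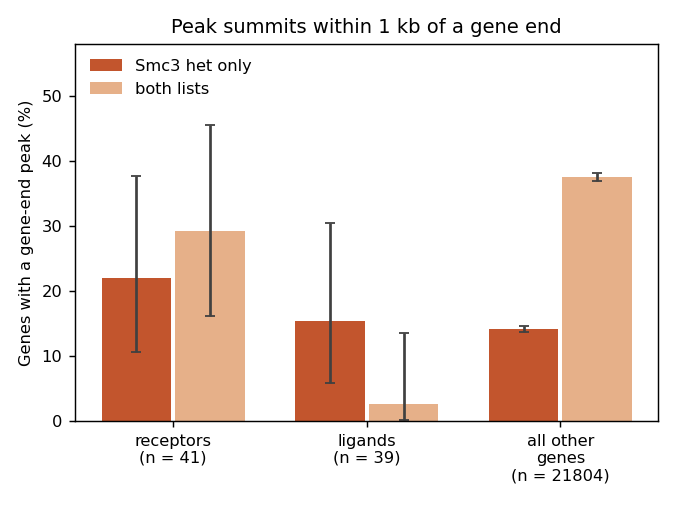
Percent of genes (y axis) with a peak summit within 1 kb of a gene end in the Smc3 het list only and in both lists, for 41 receptor genes, 39 ligand genes and the 21804 other genes. Bars show the share and error bars the exact 95% interval. Ligands had 2.56% in both lists, receptors 29.3% and the other genes 37.5%.

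The 10 genes of IL-1 family receptors and binding proteins held 40 Smc3 het and 6 Smc3 wt peaks, and 34 of the 40 (85.0%) were alone, against 69.9% of all Smc3 het peaks. The share was also 85.0% at γ-chain receptor genes and 84.2% at IL-12 family genes, and over all interleukin genes it was 78.3%. It was 78.6% at IL-1 family ligands, 76.9% in the IL-17 family and 76.5% at γ-chain ligands. Lower shares were 70.0% at genes grouped with gp130, 69.6% in the IL-10 family and 57.1% at genes of the common β chain cytokines. These family shares rest on 7 to 40 peaks each and are given without intervals. Of the 34 peaks alone at IL-1 family receptors and binding proteins, 6 were at Il1rapl1 and 7 at Il1rapl2, both very long genes. The main cluster of IL-1 family receptor genes on chromosome 1 (40084692 to 40551707, 467.02 kb) holds 6 receptor genes and no other protein-coding gene. These 6 had 23 Smc3 het peaks, 20 of them within the cluster, and 4 Smc3 wt peaks. Il1r2, the decoy receptor that binds IL-1 without signalling, had 6 peaks in Smc3 het against 0 in Smc3 wt. The most significant of these lay 9335 bp upstream (chr1:40075214-40075442, fold 3.62, -log10 q 9.75) and the next inside the gene 141 bp before a start site (chr1:40085611-40085999, fold 3.21, -log10 q 7.67). Il1r1, whose promoter is printed above, had 4 in Smc3 het against 1 in Smc3 wt, and its most significant peak in Smc3 het was alone, at chr1:40294852-40295113 inside the gene (fold 4.82, -log10 q 18.8). The peak shared with Smc3 wt lay 5427 bp after a start site, at chr1:40230403-40230674 in Smc3 het (fold 4.22, -log10 q 14.1) and chr1:40230453-40230666 in Smc3 wt (fold 3.94, -log10 q 9.54).

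Il1rl2, the IL-36 receptor, had 4 peaks in Smc3 het against 0 in Smc3 wt, led by chr1:40355453-40356334 inside the gene (fold 3.95, -log10 q 14.3). Il1rl1, which encodes the IL-33 receptor ST2 of mast cells and type 2 lymphocytes, had 5 in Smc3 het against 2 in Smc3 wt. Its 2 shared peaks lay 5369 and 211 bp before its nearest listed start site, with a fold of 3.53 and 3.10 in Smc3 het and of 3.31 and 3.00 in Smc3 wt. The IL-18 receptor genes Il18r1 and Il18rap had 2 peaks each in Smc3 het, against 1 and 0 in Smc3 wt. The shared Il18r1 peak lay 933 bp past the 3′ end of the gene (fold 4.39 in Smc3 het, 3.31 in Smc3 wt).

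**Figure D4:**
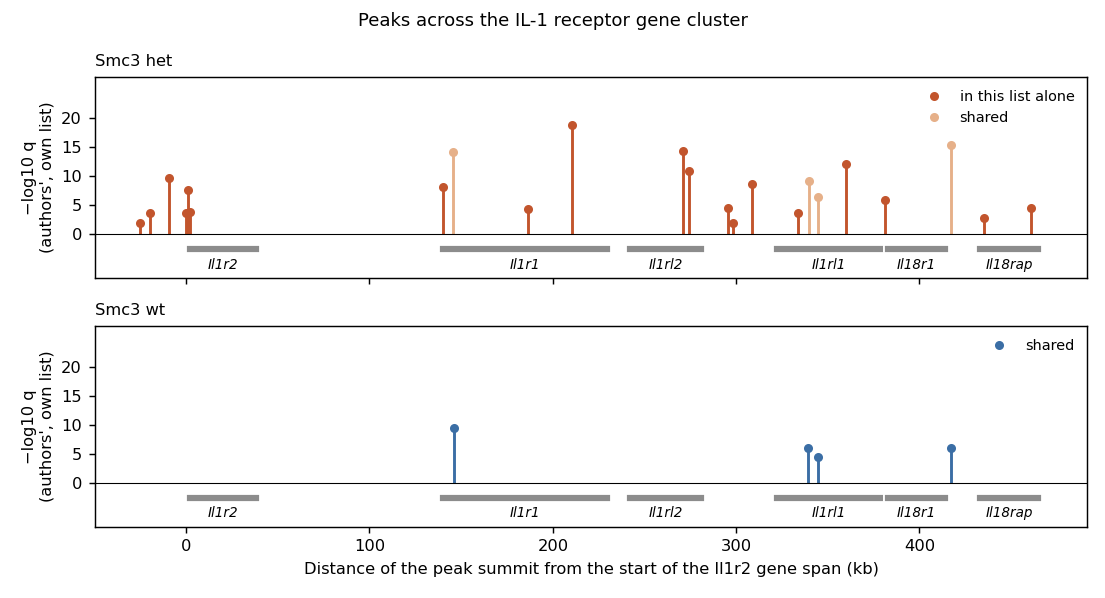
Peaks across the cluster of 6 IL-1 family receptor genes, Smc3 het above and Smc3 wt below. The x axis is the distance of the summit from the start of the Il1r2 span in kb, the y axis the authors' -log10 q within each list, and grey boxes are gene spans. The Smc3 het list has 23 peaks, 19 of them alone, and the Smc3 wt list has 4, none at Il1r2, Il1rl2 or Il18rap.

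Outside the cluster, the accessory chain gene Il1rap had 3 peaks in Smc3 het against 1 in Smc3 wt. The shared peak covered its promoter, with a fold of 6.37 and -log10 q of 32.7 in Smc3 het and a fold of 4.56 and -log10 q of 13.5 in Smc3 wt. The brain-expressed receptor-like genes Il1rapl1 and Il1rapl2 on chromosome X had 6 and 8 peaks in Smc3 het and 0 and 1 in Smc3 wt. Their spans of 1375012 and 1278324 bp are the longest of the 83, and no peak of either lay at a gene end.

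Ligand genes of the IL-1 family had 1.4 Smc3 het peaks per gene, against 2.14 over all genes. Of 10 genes, 7 had a peak in Smc3 het against 2 in Smc3 wt, where the shares of all genes were 73.3% and 47.0%. They held 14 peaks in Smc3 het against 3 in Smc3 wt. Il1b, the inflammasome-processed fever cytokine, had 5 peaks in Smc3 het against 2 in Smc3 wt. The shared peak 2352 bp upstream of its start site, at chr2:129373172-129373837 in Smc3 het, had a fold of 5.51 and -log10 q of 24.7 in Smc3 het and a fold of 4.04 and -log10 q of 10.2 in Smc3 wt, with summits 1 bp apart. Il1a, its neighbour, had 3 peaks in Smc3 het, all alone and 4150 to 10237 bp upstream of its start site, and 0 in Smc3 wt. Il1rn, the receptor antagonist, had 1 peak in each list, shared, 18633 bp upstream in Smc3 het. The IL-36 and IL-38 genes of the same stretch of chromosome 2 had 2 peaks at Il1f6, 1 at Il1f9 and 1 at Il1f10 in Smc3 het, 0 in Smc3 wt, and Il1f5 and Il1f8 had 0 in both. Il18 had 1 peak in Smc3 het, at a gene end that also lies in the gene Bco2, and 0 in Smc3 wt, and the alarmin gene Il33 had 0 in both.

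Genes of γ-chain cytokines and receptors had a peak in Smc3 het at 13 of 14 members and in Smc3 wt at 7, where the shares of all genes were 73.3% and 47.0%. The 6 ligand genes had 17 peaks in Smc3 het against 4 in Smc3 wt, and the 8 receptor genes 20 and 4. Il7 had 6 and 1, and the shared peak covered a gene end (chr3:7612790-7613841 in Smc3 het, fold 3.79, with fold 3.21 in Smc3 wt). Of its other 5 peaks 4 lay 164103 to 301086 bp from the gene, so their assignment rests on distance alone. Its receptor gene Il7r, a marker of lymphoid progenitors, had 3 in Smc3 het, 102 bp before, 1455 bp after and 5747 bp after its start site, with folds of 2.58, 2.93 and 2.58, and 0 in Smc3 wt. Il15, which sustains NK cells, had 3 in Smc3 het against 0 in Smc3 wt, and its peak at chr8:82383371-82383646 inside the gene had the highest fold (5.59) of the 141 peaks alone. Il2 had 3 in Smc3 het against 1 in Smc3 wt, the shared one 47485 bp upstream, and Il21 had 1 shared peak. Il4, the type 2 cytokine, had 3 in Smc3 het against 1 in Smc3 wt. Its shared peak lay at a start site, 44 bp before it in Smc3 het, with a fold of 2.90 in Smc3 het against 3.48 in Smc3 wt. The site ranked 27986 of 47233 in Smc3 het and 9498 of 14830 in Smc3 wt. Il9 had 1 peak in Smc3 het (fold 4.37) and 0 in Smc3 wt.

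Il4ra, the receptor chain for IL-4 and IL-13, had 6 peaks in Smc3 het against 2 in Smc3 wt. A peak over its start site, chr7:125551937-125552507, was alone (fold 2.84, -log10 q 7.31), and the shared peaks lay 3455 bp after the start site and 2125 bp past the gene. Beside it, Il21r had 4 in Smc3 het against 1 in Smc3 wt, and the shared peak lay at its start site (fold 3.22 in Smc3 het, 3.13 in Smc3 wt). Il9r had 3 peaks in Smc3 het, all alone, and 1 in Smc3 wt. That Smc3 wt peak at the end of Il9r overlapped a Smc3 het peak of fold 8.12 whose summit lay nearer to or in the gene Snrnp25. Il2ra had 2, Il15ra 1 and Il2rb 1 in Smc3 het against 0 in Smc3 wt, and Il2rg, the γ chain itself, had 0 in both lists.

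**Figure D5:**
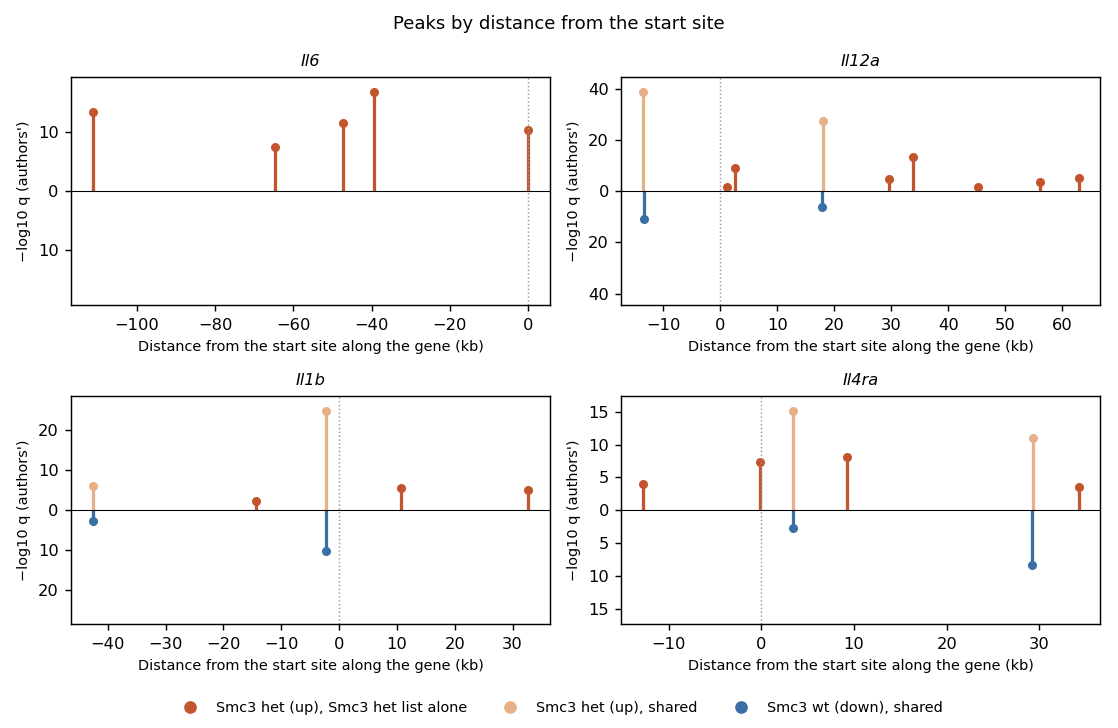
Peaks assigned to Il6, Il12a, Il1b and Il4ra, with Smc3 het drawn upward and Smc3 wt downward. The x axis is the distance of the summit from the nearest start site along the gene in kb (0 is the start site), and the y axis is the authors' -log10 q within each list. Il6 has 5 Smc3 het peaks and 0 Smc3 wt peaks, and each Smc3 wt peak at the other 3 genes faces a Smc3 het peak.

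Among the genes grouped here with gp130, Il6 had peaks in Smc3 het alone, while the receptor genes Il6ra and Il6st shared a start-site peak between the lists. The 10 genes of this group, which also holds Il31 and Il31ra, had 20 peaks in Smc3 het against 7 in Smc3 wt. The Il6 promoter peak (chr5:30012855-30013515, 661 bp wide, fold 3.70, -log10 q 10.3) covered the whole of the printed window, with its summit 97 bp after the start site. The other 4 Il6 peaks lay 39345, 47226, 64764 and 111211 bp upstream, with folds of 4.56, 3.87, 3.27 and 4.13. Il6ra, the IL-6 binding chain, had 6 in Smc3 het against 1 in Smc3 wt, and the shared peak lay at the start site (chr3:89912781-89913386, fold 5.31 in Smc3 het, and chr3:89912539-89913299, fold 4.28 in Smc3 wt). Il6st, which encodes gp130, had 4 peaks in each list. A start-site peak was shared (fold 4.62 in Smc3 het, 4.25 in Smc3 wt), and a Smc3 het peak of 1498 bp some 33064 bp upstream overlapped 2 Smc3 wt peaks. Il27ra had 2 in Smc3 het against 1 in Smc3 wt, Il11ra1 1 and 0, and Il11, Il11ra2, Il27 and Il31 had 0 in both.

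Il31ra held the most significant peak of the 83 genes. The peak chr13:112578184-112578720 had a fold of 30.7 and -log10 q of 568 in Smc3 het, rank 77 of 47233. In Smc3 wt, chr13:112578184-112578711 had a fold of 24.3 and -log10 q of 330, rank 78 of 14830. The next highest fold among interleukin peaks was 7.23 in Smc3 het, at Il12rb2, and 5.95 in Smc3 wt, at Il9r, so this site inside the gene stands apart in both lists. Its other peak, in Smc3 het alone, had a fold of 3.10.

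IL-12 family genes had peaks in Smc3 het at 6 of 6 members and in Smc3 wt at 2, where the shares of all genes were 73.3% and 47.0%. Il12a, the p35 subunit of IL-12 and IL-35, had the largest number among the 83 genes, 9 in Smc3 het against 2 in Smc3 wt. The shared peaks lay 13490 bp upstream (chr3:68676911-68677347, fold 6.96 in Smc3 het, 4.14 in Smc3 wt) and 10836 bp downstream (chr3:68709279-68709661, fold 5.66 in Smc3 het, 3.29 in Smc3 wt). Neither lay at the start site. Il12b, the p40 subunit shared by IL-12 and IL-23, had 3 weak peaks in Smc3 het, 13631 to 93448 bp upstream with folds of 2.15 to 2.58, and 0 in Smc3 wt. The receptor gene Il12rb2 had 2 in Smc3 het against 1 in Smc3 wt, with the shared promoter peak at a fold of 7.23 in Smc3 het against 4.76 in Smc3 wt, and Il12rb1 had 3 and 0. Il23r and Il23a had 1 each in Smc3 het against 0 in Smc3 wt.

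In the IL-10 family 6 of 11 genes had peaks in Smc3 het and the same 6 in Smc3 wt, where the shares of all genes were 73.3% and 47.0%. Il10ra had 5 in Smc3 het against 1 in Smc3 wt, led by a shared peak 5243 bp from the gene (chr9:45274128-45274701, fold 6.06 in Smc3 het, 4.35 in Smc3 wt). Il10, the anti-inflammatory ligand, had 3 and 1. The most significant, 954 bp outside the gene, was alone (fold 3.91, -log10 q 14.6), and the shared peak lay 13316 bp outside (fold 4.21 in Smc3 het, 2.80 in Smc3 wt). Il10rb had 3 and 1, with a shared gene-end peak (fold 4.52 in Smc3 het, 3.40 in Smc3 wt). Il20ra and Il20rb, the chains of the IL-20 receptor, had 5 and 5 in Smc3 het and 1 and 2 in Smc3 wt, and Il20 had 2 and 1. Il19, Il22, Il22ra1, Il22ra2 and Il24 had 0 in both lists.

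The IL-17 family had peaks in Smc3 het at 6 of 11 genes and in Smc3 wt at 2, where the shares of all genes were 73.3% and 47.0%. Il17ra, the common receptor chain of the family, had 6 in Smc3 het against 3 in Smc3 wt. The strongest shared site lay inside the gene (chr6:120466663-120467265, fold 4.75 in Smc3 het, 3.27 in Smc3 wt), and another at its gene end (fold 2.96 in Smc3 het, 3.13 in Smc3 wt). The third Smc3 wt peak overlapped a Smc3 het peak assigned to the gene Tmem121b. Il17b had 3 in Smc3 het against 0 in Smc3 wt, Il17re 1 shared peak, and Il17a, Il17rb and Il17rd 1 each in Smc3 het. Il17c, Il17d, Il17f and Il25 had 0 in both lists, and Il17rc had none assigned.

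Genes of the common β chain cytokines had 7 peaks in Smc3 het against 4 in Smc3 wt. Il3ra, whose protein CD123 marks leukemic stem cells in human disease, had 2 in each list. A Smc3 het peak of 886 bp over its start region (chr14:14345556-14346441, fold 5.69, -log10 q 36.9) overlapped 2 Smc3 wt peaks, chr14:14345578-14345822 (fold 4.90) and chr14:14346099-14346385 (fold 3.50). Il5, the eosinophil growth factor, had 2 peaks in each list, all shared, 10639 and 12661 bp downstream in Smc3 het. Il3 had 2 and Il5ra 1 in Smc3 het against 0 in Smc3 wt, with folds of 2.24 to 3.36. The neighbouring type 2 genes Il4, Il13 and Il5 span 112.64 kb of chromosome 11 with Rad50, whose introns hold a known control region of this locus in mouse T helper cells. With Rad50 included, that span had 7 peaks in Smc3 het against 2 in Smc3 wt. Il13 had 1 in Smc3 het against 0 in Smc3 wt, and Il13ra1 and Il13ra2 had 0 in both. Among the remaining genes, Il16, a chemoattractant precursor, had 5 in Smc3 het against 1 in Smc3 wt, all inside the gene, Il4i1 and Il4i1b had the same single Smc3 het peak, and Il34, a ligand of the CSF1 receptor, had 0 in both.

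Partners of interleukin signalling that are not named Il were counted in the same way. Of 41 such genes 40 had a peak in Smc3 het against 25 in Smc3 wt, where the shares of all genes were 73.3% and 47.0%, and 89 of their 138 Smc3 het peaks (64.5%) were alone, against 69.9% of all Smc3 het peaks. They had a peak at a gene end in Smc3 het only at 11 genes, in both lists at 18 and in Smc3 wt only at 1, where the shares of all genes were 14.2%, 37.5% and 0.265%. The kinase gene Jak1 had 15 in Smc3 het against 5 in Smc3 wt, the feedback inhibitor genes Socs3 7 and 2 and Cish 3 and 4, and Stat5b 7 and 0. The receptor gene Csf2rb2, whose product is the mouse IL-3 receptor β chain, had 5 and 0, and Csf2rb 2 and 1, with its Smc3 wt peak alone. The cytokine gene Csf3 had 0 in both.

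Of 10 HSPC markers 9 had a peak in Smc3 het against 5 in Smc3 wt, where 73.3% and 47.0% of all genes had one, and they held 72 and 13 peaks. Markers of other cells that use interleukins had them, in Smc3 het against Smc3 wt, at 3 and 1 of 7 T and NK cell genes, 2 and 0 of 5 B cell genes, 6 and 4 of 6 monocyte and macrophage genes, 4 and 1 of 6 mast cell, basophil and eosinophil genes, 3 and 2 of 5 neutrophil genes, 3 and 1 of 4 erythroid genes and 5 and 2 of 5 stromal and endothelial genes. Within the T and NK cell list Cd3e, Cd3g, Cd8a and Ncr1 had 0 peaks in both lists, while Klrb1c had 5 in Smc3 het against 3 in Smc3 wt, Lck 2 and 0 and Cd4 1 and 0. Within the B cell list Ebf1 had 4 and 0 and Pax5 1 and 0, and Cd79a and Ms4a1 had 0 in both lists. Of the 40 Smc3 het peaks at monocyte and macrophage markers 35 were alone (87.5%), of the 72 at HSPC markers 59 (81.9%) and of the 21 at stromal and endothelial markers 19 (90.5%), against 69.9% of all Smc3 het peaks. The other marker lists had 3 to 8 Smc3 het peaks each. In bulk libraries fewer cells with a site open and a site less open in every cell cannot be told apart, and the part of cell composition in the peaks described here was not tested.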

How the data were processed

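ATAC-seq of mouse bone marrow HSPC was compared between Smc3 het and Smc3 wt, 3 libraries each by title. Alignment used Bowtie2 on mm10 and peak calling MACS2, per the submitters' processing notes. Of their versions and filters, a Tn5 shift or pooling the sources used here say nothing. The authors deposited 1 list of 10 columns per genotype. It holds a deposited integer score, equal to 10 times the -log10 q without its decimals in 99.996% (Smc3 het) and 99.993% (Smc3 wt) of rows, the deposited fold (a ratio of summit over background), and the deposited -log10 q. Files were tied to genotypes by their peak names. Without read counts in them, the depth is unknown.

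Gene spans came from a RefSeq table of GRCm38.p6 and start sites from the RefSeq promoter table. Summits inside several spans counted for each. Overlaps and nearest genes were computed in Python 3.11.15 (numpy 2.4.6, pandas 2.3.3, scipy 1.17.1) and tested on simulated intervals against bedtools 2.31.1. Peaks on unplaced scaffolds (326 in Smc3 het, 137 in Smc3 wt) had no gene. The text names genes with 3 or more Smc3 het peaks or any Smc3 wt peak (41), and others by count. Equal list length kept the Smc3 het peaks of highest -log10 q, then fold. Weighting by decile and by position was chosen after seeing the data. Members and lists were chosen with earlier results of these data known. The split into ligands and receptors follows the symbols. Summit windows were not used here, as no genome sequence was given.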

Additional observations from a re-analysis of the deposited data

How the results depend on the processing

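Of the alternatives tried, 50% overlap of the shorter peak and counting peaks within 500 bp as shared left 141 Smc3 het peaks alone, and 0 Smc3 wt peaks were alone under every setting other than equal list length. With a -log10 q of at least 5 in both lists there were 104 Smc3 het peaks, 78 of them alone, and 28 Smc3 wt peaks. With gene spans and 5 kb around them there were 113, 89 and 27. With a fold of at least 5 in both lists there were 10 Smc3 het peaks at 9 genes and 2 Smc3 wt peaks at 2 genes. Under that cut 9 of the 10 (90.0%), at 8 genes, had no counterpart, against 48.8% of all Smc3 het peaks under it. In the full lists, however, 9 of these 10 were shared. Gene-end peaks under the same cut were in Smc3 het only at 5 genes and in both lists at 2. At equal list length there were 39 Smc3 het peaks at 29 genes, 16 of them without a counterpart (41.03%) at 13 genes, and 18 of the Smc3 wt peaks had none, with gene-end peaks in Smc3 het only at 1 gene and in Smc3 wt only at 4. The Smc3 het minus Smc3 wt number of peaks was then -1 at Il1b, Il1rl1, Il4, Il9r, Il4ra, Il21r, Il27ra, Il20rb and Il16, where it was positive in the full lists, and -1 at Il9r with a fold of at least 5. These cuts leave fewer peaks by construction. With start sites only, for the 66 genes that have them, both lists had a peak at an end of 9 genes. The other 44 of 68 comparisons of a count or share with its main value stayed within 1.5 times the main count or within the interval of the main share. No paired analysis was possible because the lists hold no values per library, and leaving out libraries could not be run for the same reason.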

Other observations

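Shared sites of interleukin genes were wider in Smc3 het, as shared sites were elsewhere. Of 39 shared Smc3 het peaks 34 (87.2%) were wider than their Smc3 wt counterpart, against 89.1% of the other shared peaks. Their median width was 569 bp in Smc3 het, against 318 bp in Smc3 wt. The summits lay a median of 55 bp apart, and 18 of the 39 (46.2%) were within 50 bp, against 56.0% of the others.

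Counts at neighbouring interleukin genes were as follows. The pair Il6st and Il31ra on chromosome 13 had 6 peaks in Smc3 het against 5 in Smc3 wt, while Il1a and Il1b on chromosome 2 had 8 and 2, and Il4ra and Il21r on chromosome 7 had 10 and 3. Il2ra and Il15ra, neighbours on chromosome 2, had 3 peaks in Smc3 het against 0 in Smc3 wt, and Il17a and Il17f 1 and 0. Il17re and Il17rc on chromosome 6 had 1 in each list. No count of a locus has a replicate check.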
